A study of Mus musculus with 24 samples.

Results

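The proteasome genes of BV-2 microglial cells are described here, without the inducible catalytic subunits Psmb8, Psmb9 and Psmb10. The members are all probes whose annotated symbol begins with Psma, Psmb, Psmc, Psmd, Psme, Psmf or Psmg followed by a digit. They are 59 of the 24611 probes on the array and stand for 43 of 15161 named genes. By the subunit each gene encodes, 15 genes belong to the core particle, 16 to the regulatory particle, 6 to the assembly chaperones and 4 to the activators. The rule also takes Psmc3ip, a meiotic recombination cofactor, and Psme3ip1, which encodes a protein that binds an activator, and these 2 genes are not subunits. Psma8, Psmd1, Psmg4 and Psmf1 had no probe matched by symbol and were not analysed here.

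The proteasome is the protease of the cytosol and nucleus that degrades proteins tagged with ubiquitin. Its core particle is a stack of rings formed by Psma (alpha) and Psmb (beta) subunits, with the proteolytic sites inside, and the regulatory particle, made of a base with Psmc ATPases and a lid of Psmd subunits, binds, unfolds and feeds the tagged proteins. In macrophages and microglia, inflammatory signals are known to exchange the catalytic beta subunits for inducible counterparts and to raise the activator formed by Psme1 and Psme2, which changes the peptides made for antigen presentation.

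The study measured RNA of BV-2, an immortalized line of mouse microglia, after LPS, a bacterial cell wall component, and after the cannabinoids cannabidiol (CBD) and Δ9-tetrahydrocannabinol (THC), alone or before LPS. The labels give 2 arrays for CBD+LPS, 4 for THC+LPS, 6 for LPS, 2 for CBD, 4 for THC and 6 for untreated cells (Cntr), 24 in all. Per the methods, CBD or THC was given at 10 µM for 6 h, LPS at 100 ng/ml for 4 h, and cells given both received CBD or THC 2 h ahead of LPS. The methods and results of the study give different numbers of replicates for each treatment, and whether each array had its own culture is not stated, so each p-value rests on array-to-array spread, possibly of technical origin. All values are the deposited log2 signals, a difference is the log2 fold change of a linear model (limma) over all arrays, with its standard error (SE), and a gene was called where its p, after Benjamini-Hochberg adjustment across the 24611 probes, was under 0.05. Each gene is given by its brightest probe.

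Of 9 measured markers of microglia and macrophages, 6 were detected on every array, namely Aif1, C1qb, C1qc, Mef2c, Tyrobp and Trem2. C1qa was detected on 23 arrays, Cx3cr1 on 22 and Itgam on 4. Of the 9, 5 were called lower in CBD+LPS, 1 in THC+LPS, 1 in LPS and 3 in CBD, and 1 was higher in LPS, where 8.52%, 8.21%, 9.33% and 1.37% of all named genes were lower in these groups and 6.24% higher in LPS. The lower ones were C1qa, C1qb, C1qc, Mef2c and Cx3cr1 in CBD+LPS, Mef2c in THC+LPS and LPS, and C1qa, C1qc and Mef2c in CBD. Cx3cr1 was the higher one in LPS. The part of these markers in the results was not tested. Of markers of other cell types, Aldoc, Tubb3 and Cnp were detected on all arrays, and 4 of 6 astrocyte, 3 of 5 neuron, 4 of 5 oligodendrocyte and 5 of 6 fibroblast markers on none. Tnf, which LPS is known to induce, was 4.67 ± 0.22 (SE) higher on the log2 scale in LPS than in Cntr, with no overlap between the groups. Pairs of arrays correlated at 0.964 to 0.996 over all probes. The median raw signal of an array lay between 108.9 and 156.6, and 36.9% of the variance within groups lay on a single component that no label names. The number of arrays, 2 each for CBD and CBD+LPS, limits the precision.

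The 250 bases before the RefSeq start were available for 36 of the 43 member genes (build GRCm38.p6), and 4 of these promoters are shown because they belong to the genes the results turn on, first Psmd10 and Psmd8, which were higher after LPS, and then the catalytic subunits Psmb5 and Psmb6, which were not called in any comparison. They are printed 5′ to 3′ on the gene's own strand, and capitals mark matches on either strand to CCAAT, the box bound by NF-Y, or to TGACNNNGC, the antioxidant response element that NRF1 and NRF2 bind.
Psmd10, chrX:140956712-140956961, minus strand: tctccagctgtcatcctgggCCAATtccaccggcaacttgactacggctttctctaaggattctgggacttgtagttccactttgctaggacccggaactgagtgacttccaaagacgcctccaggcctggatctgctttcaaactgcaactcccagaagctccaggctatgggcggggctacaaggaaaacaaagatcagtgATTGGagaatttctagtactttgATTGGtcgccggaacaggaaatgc
Psmd8, chr7:29180674-29180923, minus strand: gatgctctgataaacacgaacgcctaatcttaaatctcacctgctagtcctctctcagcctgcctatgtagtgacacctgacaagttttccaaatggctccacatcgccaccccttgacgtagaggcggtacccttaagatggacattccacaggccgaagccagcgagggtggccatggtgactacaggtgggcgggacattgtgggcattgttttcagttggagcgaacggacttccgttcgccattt
Psmb5, chr14:54617996-54618245, minus strand: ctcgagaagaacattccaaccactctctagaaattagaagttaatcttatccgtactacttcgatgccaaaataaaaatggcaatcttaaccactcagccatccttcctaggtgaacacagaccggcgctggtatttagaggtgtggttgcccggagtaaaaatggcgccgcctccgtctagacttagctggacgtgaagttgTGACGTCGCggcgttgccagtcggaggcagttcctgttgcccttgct
Psmb6, chr11:70525107-70525356, plus strand: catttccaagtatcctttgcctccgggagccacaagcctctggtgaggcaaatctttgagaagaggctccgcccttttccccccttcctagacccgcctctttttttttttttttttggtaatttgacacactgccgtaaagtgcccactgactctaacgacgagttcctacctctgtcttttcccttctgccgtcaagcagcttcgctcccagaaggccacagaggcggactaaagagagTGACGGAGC
The Psmd10 promoter held 3 CCAAT matches, of which 2 lay within the last 47 bases before the start. Psmb5 and Psmb6 each held 1 antioxidant response match, at 47 to 39 and at 9 to 1 bases before the start, and Psmd8 held neither motif. Over all 32851 promoter windows of this length, 33.8% held CCAAT and 10.2% TGACNNNGC, against 15 and 5 of the 36 member genes. No matches overlapped in the printed promoters. A match describes these letters only.

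The brightest probe was detected (detection p under 0.05) on all 24 arrays for 39 of the 43 genes. Psma6 was detected on none, Psmb11, a beta subunit of the thymus, on 2, Psmc1 on 19 and Psmd11 on 22. Within groups the core genes detected on all arrays had a median SD of 0.10 and the regulatory genes one of 0.13, against 0.18 over 6340 named genes detected on all arrays.

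Against untreated cells, 7 of the 43 genes were called in at least 1 of the 5 groups, and the other 36 in none. The matching share of all named genes over the 5 groups was not counted, so whether 7 is few or many is read from each group below. Psmd10 and Psmd5, chaperones of the base, the lid subunits Psmd8 and Psmd11, the alpha subunit Psma5 and the activator subunit Psme1 rose in at least 1 group, and the nuclear activator Psme3 fell. In CBD+LPS, 5 genes were higher and 1 lower (of all named genes 6.88% were called higher and 8.52% lower). In THC+LPS, 4 genes were higher and 0 lower (5.82% and 8.21%). In LPS, 4 were higher and 0 lower (6.24% and 9.33%), in CBD 1 was higher and 1 lower (2.22% and 1.37%), and in THC none was called by limma in either direction (0.0066% higher and 0% lower). At an unadjusted p under 0.05, 6 members were higher and 5 lower in CBD+LPS, 8 and 3 in THC+LPS, and 6 and 4 in LPS. The counts were 5 and 3 in CBD, and 3 and 0 in THC. Of the 15161 named genes, 1723 were higher and 2155 lower at that p in CBD+LPS, 1447 and 2169 in THC+LPS, and 1495 and 2321 in LPS. For CBD these were 1182 and 1110, and for THC 377 and 277. Among named genes detected on all arrays the called shares were larger, 12.7% higher and 17.9% lower in CBD+LPS, 10.7% and 16.4% in THC+LPS, 11.5% and 18.2% in LPS, 4.31% and 3.12% in CBD, and 0.0158% and 0% in THC, so the counts of higher members were close to the background. The balance of directions depended on the scaling. With arrays scaled to their medians, which put the median of all detected genes at −0.22 in THC+LPS and −0.21 in LPS, 1 member was higher (Psmd10) and 4 lower (Psmd9, Psmg2, Psmg3 and Psme3ip1) in THC+LPS, and 3 were higher (Psmd8, Psme1 and Psmd10) and 3 lower (Psme3ip1, Psme4 and Psmg2) in LPS. The 5 comparisons share the Cntr arrays.

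**Figure D1:**
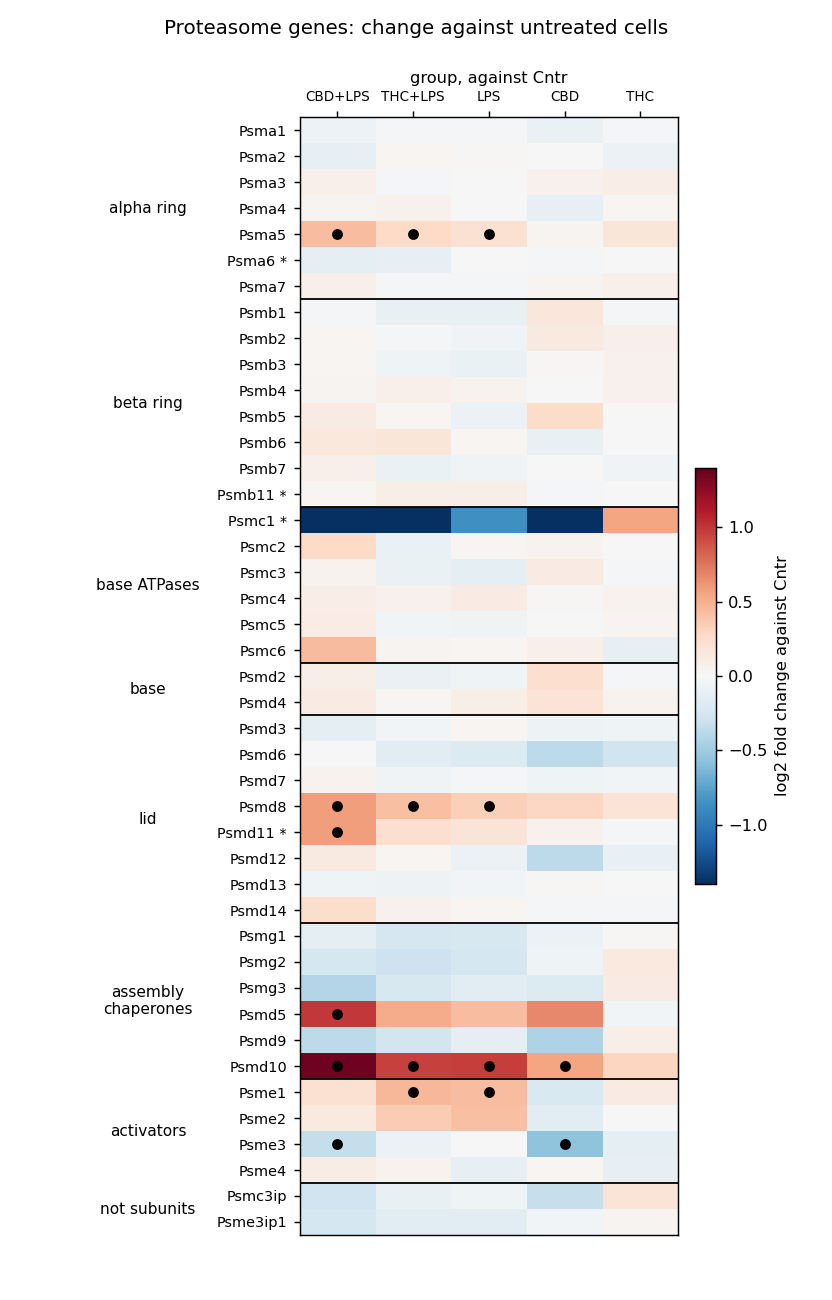
Log2 fold change against Cntr (colour) of each of the 43 proteasome genes (rows, by particle) in CBD+LPS, THC+LPS, LPS, CBD and THC (columns), with a dot where the gene was called. An asterisk marks a gene not detected on all 24 arrays, and Psmd10 is the row with dots in 4 of the 5 columns. Some Psmc1 differences, such as −1.49 in CBD, run past the colour scale without a call, and those in LPS (−0.85) and THC (0.56) do not.

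Most core and regulatory genes stayed close to their untreated level in all 5 groups. The median difference of the 13 core genes detected on all arrays was 0.04 in CBD+LPS, −0.02 in THC+LPS, −0.01 in LPS, 0.02 in CBD and 0.03 in THC, all on the log2 scale. For the 14 regulatory genes the medians were 0.10 in CBD+LPS, −0.03 in THC+LPS, −0.00 in LPS, 0.01 in CBD and −0.02 in THC. Over all 6340 named genes detected on all arrays the medians were −0.06, −0.07, −0.07, −0.01 and 0.01 in the same order of groups. The 95% interval of the difference lay within ±0.5 for 13 of 13 core and 13 of 14 regulatory genes in LPS, against 64.7% of all 6340 genes. In CBD+LPS it lay there for 12 core and 8 regulatory genes, against 40.1% of all.

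**Figure D2:**
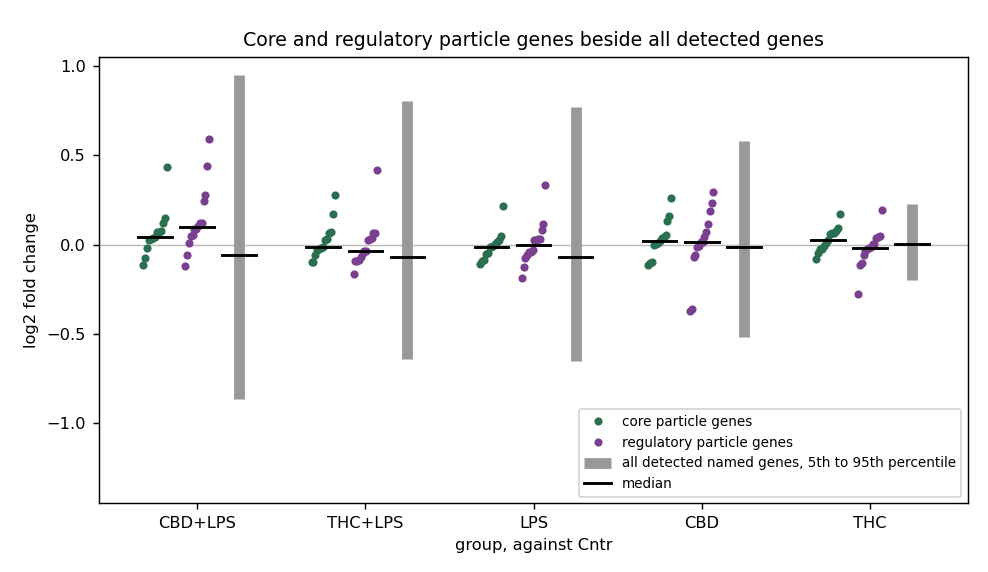
Log2 fold change against Cntr of the 13 core particle genes and 14 regulatory particle genes detected on all arrays (points, with the median as a black bar), beside the 5th to 95th percentile of all 6340 detected named genes (grey bar) in each group. In LPS the core genes lay between −0.11 and 0.22, inside the grey bar from −0.65 to 0.77.

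Among the alpha subunits of the core, Psma5 was the one gene of 7 that was called. Its log2 signals were 8.58 and 8.52 on the CBD+LPS arrays and 8.45, 8.43, 8.37 and 8.31 on the THC+LPS arrays. They were 8.27 to 8.41 with a median of 8.33 on the LPS arrays, and 7.97 to 8.28 with a median of 8.12 on the Cntr arrays. Both combined groups lay above every Cntr array, and the lowest LPS array lay below the highest Cntr array. The differences from Cntr were 0.44 ± 0.10 in CBD+LPS (1.35-fold, adjusted p = 0.00236), 0.28 ± 0.08 in THC+LPS (1.21-fold, adjusted p = 0.0144) and 0.22 ± 0.07 in LPS (1.16-fold, adjusted p = 0.0314). The signal is low, so a change is compressed in these values, which were not corrected for background. The LPS call was lost without any 1 of LPS replicates 2, 5 and 6 and Cntr replicates 2, 4 and 5 (log2 fold change 0.19 to 0.22, adjusted p 0.0522 to 0.088), and the THC+LPS call without THC+LPS replicate 2 (0.26, adjusted p = 0.0502). With arrays scaled to their medians, where all detected genes had a median of −0.21 in LPS and −0.22 in THC+LPS, Psma5 was at 0.02 in LPS and 0.13 in THC+LPS, 0.24 and 0.35 above that median and not called, and the CBD+LPS call was lost (0.38, adjusted p = 0.0695).

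Psmb5, Psmb6 and Psmb7 carry the chymotrypsin-like, caspase-like and trypsin-like activities of the constitutive core, and none of them was called in any comparison. Psmb5 lay at 13.74 and 13.81 in CBD+LPS, 13.52 to 13.81 in THC+LPS, 13.40 to 13.87 with a median of 13.52 in LPS, 13.92 and 13.91 in CBD, 13.47 to 13.76 in THC and 13.52 to 13.76 with a median of 13.67 in Cntr. Both CBD arrays were above every Cntr array, with a difference of 0.26 ± 0.11 (adjusted p = 0.257), and the other groups overlapped Cntr. Psmb6 lay at 14.93 and 14.76 in CBD+LPS, 14.78 to 14.93 in THC+LPS, 14.66 to 14.84 in LPS, 14.59 and 14.59 in CBD, 14.66 to 14.81 in THC and 14.52 to 14.85 in Cntr. Psmb7 lay at 14.15 and 14.06 in CBD+LPS, 13.80 to 14.08 in THC+LPS, 13.84 to 14.18 in LPS, 14.06 and 14.01 in CBD, 13.88 to 14.06 in THC and 13.87 to 14.11 in Cntr. All 5 treated groups overlapped Cntr for both genes. In LPS the differences were −0.09 for Psmb5, with a 95% interval of −0.24 to 0.07, 0.03 for Psmb6 (−0.11 to 0.16) and −0.05 for Psmb7 (−0.19 to 0.09).

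Of the inducible counterparts, Psmb10 and Psmb9 were called in THC+LPS and LPS, Psmb10 in CBD+LPS, and Psmb8 in no group. Psmb10, which replaces Psmb7, had 13.35 and 12.62 in CBD+LPS, 13.11 to 13.45 in THC+LPS, 12.96 to 13.62 with a median of 13.20 in LPS and 12.09 to 12.61 with a median of 12.52 in Cntr. It rose by 0.55 ± 0.18 in CBD+LPS (adjusted p = 0.049), 0.86 ± 0.15 in THC+LPS (adjusted p = 0.000126) and 0.81 ± 0.13 in LPS (1.75-fold, adjusted p = 5.47e-05), with no overlap. Psmb9, which replaces Psmb6, rose by 1.65 ± 0.42 in THC+LPS (adjusted p = 0.00777) and 1.38 ± 0.37 in LPS (2.60-fold, adjusted p = 0.0114), with some arrays overlapping Cntr. In CBD+LPS the Psmb9 difference was 1.12 ± 0.53 (adjusted p = 0.198). Psmb8, which replaces Psmb5, was 0.67 ± 0.26 above Cntr in LPS and not called (adjusted p = 0.103). The 3 genes were not called in CBD or THC.

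**Figure D3:**
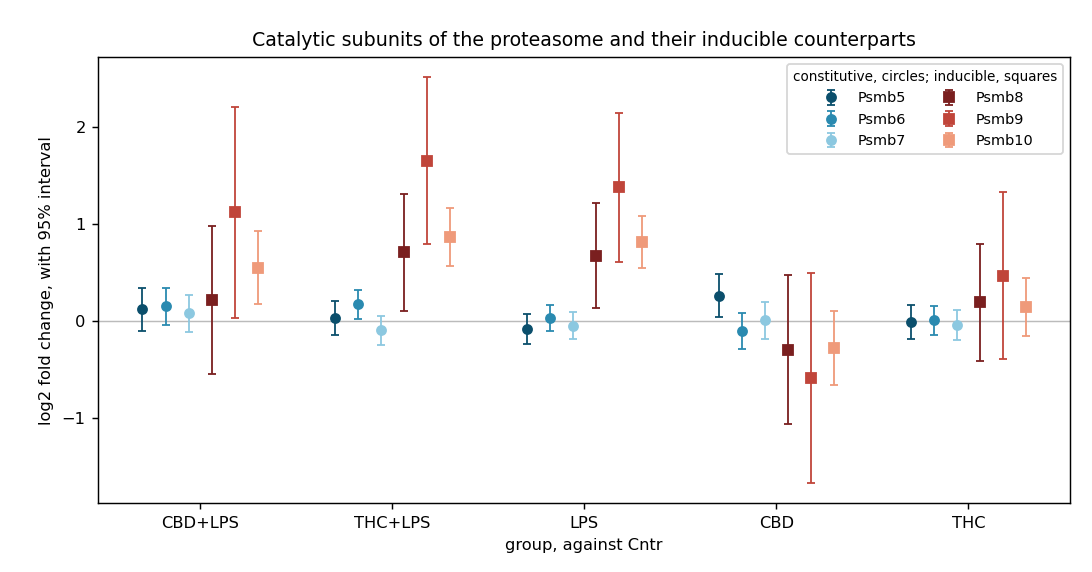
Log2 fold change against Cntr with its 95% interval (vertical axis) of the constitutive catalytic subunits Psmb5, Psmb6 and Psmb7 (circles) and the inducible Psmb8, Psmb9 and Psmb10 (squares) in each group. In LPS the circles lie between −0.09 and 0.03 and the squares at 0.67, 1.38 and 0.81.

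In the regulatory particle the lid subunit Psmd8 rose in all 3 groups given LPS. Its signals were 14.81 and 14.82 in CBD+LPS, 14.77, 14.61, 14.73 and 14.48 in THC+LPS, 14.45 to 14.65 with a median of 14.56 in LPS, and 14.13 to 14.33 with a median of 14.21 in Cntr. Every array of the 3 groups was above every Cntr array. The differences were 0.59 ± 0.09 in CBD+LPS (1.51-fold, adjusted p = 2.54e-05), 0.42 ± 0.07 in THC+LPS (1.34-fold, adjusted p = 7.45e-05) and 0.33 ± 0.06 in LPS (1.26-fold, adjusted p = 0.00025). CBD had 14.61 and 14.44 and THC 14.37 to 14.50, also above every Cntr array, with differences of 0.29 ± 0.09 (adjusted p = 0.0658) and 0.19 ± 0.07 (adjusted p = 0.999) that were not called. With median scaling the CBD+LPS and THC+LPS calls of Psmd8 were lost (0.32, adjusted p = 0.147, and 0.30, adjusted p = 0.0593). A call in CBD was gained after background correction (neqc), with dim probes left out and with a mean-variance trend. It was also gained with the set of 8 columns of the deposited table as a block.

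Psmd11, a lid subunit that clamps the regulatory to the core particle, was called in CBD+LPS. It had 8.03 and 7.99 in CBD+LPS, 7.32 to 7.85 in THC+LPS, 7.45 to 7.70 in LPS and 7.19 to 7.57 in Cntr. Both CBD+LPS arrays lay above all other arrays listed, with a difference from Cntr of 0.58 ± 0.13 (adjusted p = 0.00212). Its second probe was detected on no array (0.12, adjusted p = 0.718). In THC+LPS the difference was 0.23 ± 0.10 (adjusted p = 0.157), called without THC+LPS replicate 1 (0.35, adjusted p = 0.016). Psmd4, a ubiquitin receptor of the base, differed from Cntr by 0.12 ± 0.11 in CBD+LPS, 0.03 ± 0.08 in THC+LPS and 0.08 ± 0.07 in LPS. Psmd14, the lid enzyme that removes ubiquitin chains, differed by 0.25 ± 0.16, 0.06 ± 0.13 and 0.03 ± 0.11 in these groups, and neither gene was called in any comparison. The ATPase Psmc6 was 0.44 ± 0.15 higher in CBD+LPS and was not called (adjusted p = 0.0577). It was called with neqc, with dim probes left out or without Cntr replicate 6 (0.52, adjusted p = 0.0136). Without CBD+LPS replicate 1 its difference was 0.61.

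Psmc1, an ATPase of the base, stood apart from the other members. Its probe read 10.31 to 11.16 on 17 arrays and 6.51 to 7.41 on the other 7, which were CBD+LPS replicate 2, THC+LPS replicates 3 and 4, LPS replicates 5 and 6, CBD replicate 2 and Cntr replicate 5. The 7 low arrays come from 5 groups and are 7 of the 8 arrays in the last 8 columns of the deposited table. Its SD within groups was 1.91, and only 2 of 8852 named genes detected on any array had a larger one. The sets of 8 columns were looked at because of these readings, so no test is given. The labels name no chip or batch, and the part of either in this pattern was not tested. The Psmc1 differences between treatments carry this spread, as in −1.58 ± 1.36 for CBD+LPS, and none was called.

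**Figure D4:**
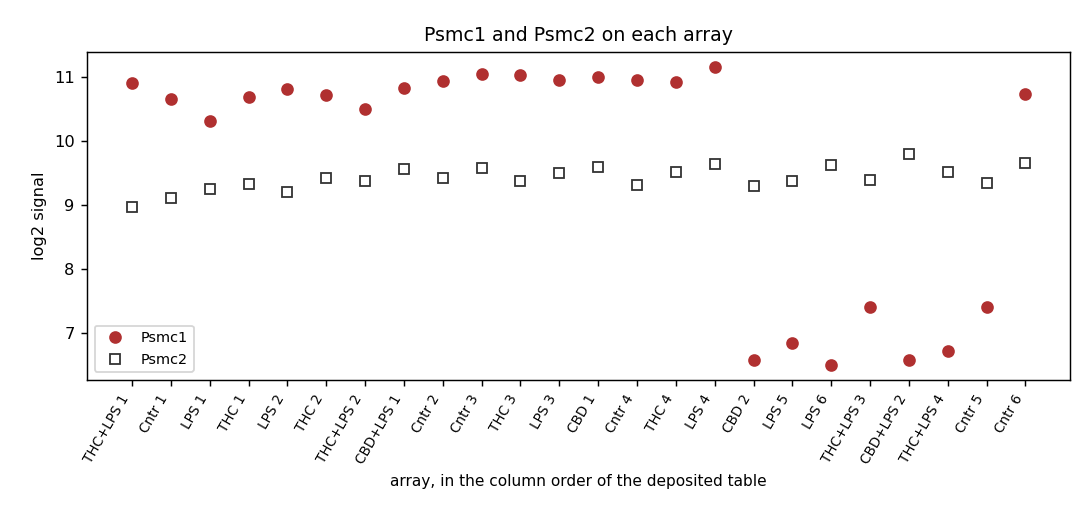
Log2 signal of Psmc1 (filled circles) and of Psmc2, another ATPase of the base (open squares), on the 24 arrays in the column order of the deposited table; signals of different probes are not comparable in level. Psmc1 is at 7.41 or below on 7 of the last 8 arrays and at 10.31 or above on the other 17.

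The largest called change of any member was that of Psmd10, also called gankyrin, which holds ATPases of the base during its assembly. Its signals were 12.55 and 12.79 in CBD+LPS, 12.35, 12.25, 12.34 and 12.13 in THC+LPS, and 12.11 to 12.55 with a median of 12.23 in LPS. CBD had 12.02 and 11.69, THC 11.87, 11.58, 11.36 and 11.62, and Cntr 11.22 to 11.35 with a median of 11.32. Every treated array was above every Cntr array. The differences were 1.36 ± 0.12 in CBD+LPS (2.57-fold, adjusted p = 2.48e-08), 0.96 ± 0.10 in THC+LPS (1.94-fold, adjusted p = 8.41e-08), 0.97 ± 0.09 in LPS (1.95-fold, adjusted p = 8.17e-09) and 0.55 ± 0.12 in CBD (1.46-fold, adjusted p = 0.012). In THC it was 0.30 ± 0.10 with an adjusted p of 0.999, and the 2 other probes of the gene overlapped Cntr there. The other probes gave 1.34 and 1.33 in CBD+LPS, 0.89 and 1.01 in THC+LPS, 0.97 and 1.07 in LPS and 0.51 and 0.54 in CBD. Those 2 probes were called in the 3 groups given LPS and not in CBD (adjusted p = 0.0986 and 0.153). Without CBD replicate 1 the CBD call of the brightest probe was lost (0.39, adjusted p = 0.892), and with median scaling it was lost at 0.51 (adjusted p = 0.186).

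Psmd5, a chaperone of the base that also holds its ATPases apart from the core, was called in CBD+LPS. The arrays had 10.32 and 10.003 in CBD+LPS, 10.01, 9.15, 10.31 and 9.27 in THC+LPS, 9.11 to 9.84 with a median of 9.70 in LPS, 9.93 and 9.73 in CBD, 8.78 to 9.34 in THC and 8.81 to 9.44 with a median of 9.25 in Cntr. The CBD+LPS and CBD arrays did not overlap Cntr, and the THC+LPS arrays fell into a high and a low pair. The difference was 1.00 ± 0.25 in CBD+LPS (1.99-fold, adjusted p = 0.0066) and without CBD+LPS replicate 1 it was 0.84 (adjusted p = 0.107). It was 0.52 ± 0.20 in THC+LPS (adjusted p = 0.0926), 0.43 ± 0.17 in LPS (adjusted p = 0.12) and 0.67 ± 0.25 in CBD (adjusted p = 0.175). The THC+LPS call was gained without replicate 2 (0.70, adjusted p = 0.0231) or replicate 4 (0.66, adjusted p = 0.0441), and the LPS call without LPS replicate 2 (0.53, adjusted p = 0.0489). The second Psmd5 probe was detected on no array.

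Psmd9, another chaperone of the base, lay lower in both CBD groups, with 8.92 and 8.68 in CBD+LPS and 8.71 and 8.78 in CBD against 9.04 to 9.42 in Cntr. All 4 arrays were below every Cntr array, with differences of −0.37 ± 0.13 (adjusted p = 0.0565) and −0.43 ± 0.13 (adjusted p = 0.0709) that were not called. With dim probes left out, both differences were called. The CBD+LPS difference was also called without Cntr replicate 3 (−0.40, adjusted p = 0.0485), and the CBD difference passed the study's unadjusted threshold of 0.005. Its second, dimmer probe fell by 0.48 on the log2 scale in CBD+LPS (adjusted p = 0.00397) and was at −0.04 in CBD, so the 2 probes of this gene gave different calls. Psmg1, Psmg2 and Psmg3, which assemble the core rings, were not called in any comparison with the deposited scaling over all arrays and probes. Psmg2 was at −0.25 against Cntr in LPS (adjusted p = 0.0947), a call gained without Cntr replicate 4 (−0.30, adjusted p = 0.0307) or LPS replicate 6 (−0.29, adjusted p = 0.0489), and at −0.29 in THC+LPS (adjusted p = 0.0858), a call gained without Cntr replicate 4 (−0.34, adjusted p = 0.0287). Psmg3 was called lower in CBD+LPS with dim probes left out or without Cntr replicate 6 (−0.49, adjusted p = 0.0212). Without CBD+LPS replicate 1 its difference was −0.66. With median scaling, Psmg2 was called lower in THC+LPS (−0.47, or −0.25 relative to the median of all detected genes, adjusted p = 0.0174) and in LPS (−0.42, or −0.20 relative to it, adjusted p = 0.0148). Psmg3 (−0.40, or −0.18, adjusted p = 0.0469) and Psmd9 (−0.44, or −0.22, adjusted p = 0.0479) were then called lower in THC+LPS.

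Psme1 and Psme2 form the ring-shaped activator that interferon-gamma is known to induce. Psme1 had 13.94 and 13.18 in CBD+LPS, 13.81, 13.85, 13.81 and 13.78 in THC+LPS, 13.56 to 13.98 with a median of 13.76 in LPS and 12.91 to 13.70 with a median of 13.38 in Cntr. The THC+LPS arrays did not overlap Cntr, while the LPS arrays did. Psme1 rose by 0.46 ± 0.14 in THC+LPS (1.38-fold, adjusted p = 0.027) and 0.44 ± 0.12 in LPS (1.35-fold, adjusted p = 0.0168), and its second probe was called in both groups. In CBD+LPS the difference was 0.21 ± 0.18 (adjusted p = 0.553), with 1 array above every Cntr array and 1 within their range. The LPS call was lost without Cntr replicate 6 (0.35, adjusted p = 0.0547). The THC+LPS call was lost without any 1 of the 4 THC+LPS arrays or of Cntr replicates 3 and 6 (0.38 to 0.47, adjusted p 0.0561 to 0.0721), with median scaling (0.35, adjusted p = 0.139) and with the set of 8 columns as a block (0.42, adjusted p = 0.0509).

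Psme2 had 11.07 and 10.24 in CBD+LPS, 10.76 to 10.97 in THC+LPS, 10.66 to 11.07 with a median of 10.99 in LPS and 9.81 to 10.89 with a median of 10.61 in Cntr, so the groups overlapped. Its differences were 0.14 ± 0.21 in CBD+LPS, 0.35 ± 0.17 in THC+LPS (adjusted p = 0.216) and 0.42 ± 0.15 in LPS (adjusted p = 0.0666), without a call. Without Cntr replicate 1 or LPS replicate 4 it was called in LPS (0.49, adjusted p = 0.0296, and 0.47, adjusted p = 0.0429). The LPS call was also gained with dim probes left out, with the replicate number as a block and with array weights. For Psme1, Psme2, Psmb8, Psmb9 and Psmb10 alike, the lowest array of its group was CBD+LPS replicate 2, LPS replicate 4, CBD replicate 1 and Cntr replicate 6. In THC, replicate 2 was lowest for 4 of the 5 genes, and in THC+LPS, replicate 1 for 3 of them. CBD and CBD+LPS have only 2 arrays each.

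Psme3, whose product caps the core in the nucleus, was the one subunit or activator that fell. The signals were 12.68 and 12.40 in CBD+LPS, 12.15 and 12.47 in CBD, and 12.65 to 12.98 with a median of 12.89 in Cntr. Both CBD arrays were below every Cntr array, and 1 CBD+LPS array overlapped them. Psme3 fell by 0.56 on the log2 scale in CBD (SE 0.11, 32.3% lower, adjusted p = 0.00419) and by 0.33 in CBD+LPS (SE 0.11, 20.5% lower, adjusted p = 0.0436). The CBD call was lost without CBD replicate 1 (−0.41, adjusted p = 0.648) and with median scaling (−0.59, adjusted p = 0.067). The CBD+LPS call was lost with median scaling (−0.39, adjusted p = 0.135), without CBD+LPS replicate 2 (−0.19, adjusted p = 0.567) and without any 1 of Cntr replicates 2 to 6 (−0.33 to −0.31, adjusted p 0.0575 to 0.0738). Psme3 was at −0.09 ± 0.09 in THC+LPS, −0.01 ± 0.08 in LPS and −0.14 ± 0.09 in THC. Psme4, an activator of the nucleus, was not called in any comparison with the deposited scaling, and with median scaling it was called lower in LPS (−0.30, or −0.08 relative to the median of all detected genes, adjusted p = 0.0177).

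**Figure D5:**
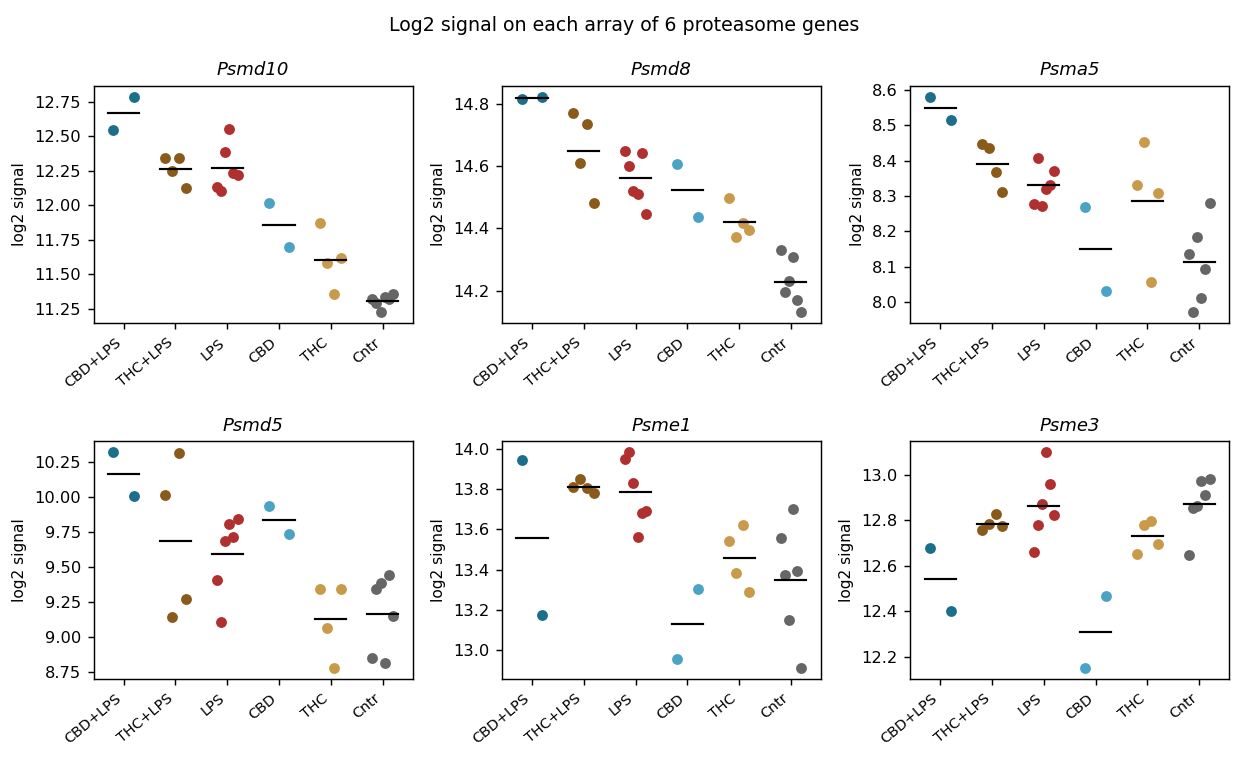
Log2 signal (vertical axis) on each array (points) and mean of the group (bar) for Psmd10, Psmd8, Psma5, Psmd5, Psme1 and Psme3 in CBD+LPS, THC+LPS, LPS, CBD, THC and Cntr. The Psmd10 arrays of Cntr lie between 11.22 and 11.35, below every treated array.

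Against LPS alone, adding a cannabinoid called no member gene by its brightest probe. For CBD+LPS versus LPS, 2.88% of all named genes were called higher and 1.75% lower (5.62% and 3.72% of those detected on all arrays). At an unadjusted p under 0.05, 8 member genes were higher and 1 lower, against 1435 and 1291 of the 15161 named genes. Of the 6340 named genes detected on all arrays, 1002 were higher and 971 lower at that p. For THC+LPS versus LPS, 0% of named genes were called in either direction. At an unadjusted p under 0.05, 1 member gene was higher and 0 lower, against 317 and 238 of the 15161 named genes. Psmd10 had a difference of 0.40 ± 0.12 for CBD+LPS versus LPS (adjusted p = 0.0671) and −0.01 ± 0.10 for THC+LPS versus LPS, and Psmd11 one of 0.41 ± 0.13 (adjusted p = 0.0755) and 0.06 ± 0.10. Psmd10 was called for CBD+LPS versus LPS without LPS replicate 4 (0.45, adjusted p = 0.0251) or with dim probes left out. In the same comparison Psmd11 was called with neqc, with dim probes left out and with the set of 8 columns as a block. Crossed replicate numbers for CBD and CBD+LPS as a block also called Psmd11, and neqc also called Psmd8. Without CBD+LPS replicate 1, Psmd10 was at 0.52 and Psme3 at −0.46. The second Psmd9 probe fell by 0.46 (adjusted p = 0.0202), with 7.88 and 7.92 on the CBD+LPS arrays and 8.27 to 8.45 on the LPS arrays. The median difference for CBD+LPS versus LPS was 0.08 over core and 0.16 over regulatory genes, against −0.02 over all detected genes. Without CBD+LPS replicate 1 these medians were 0.0406 over core and 0.200 over regulatory genes, without CBD+LPS replicate 2 they were 0.175 and 0.0330, and with median scaling −0.0046 and 0.0894. The response to LPS in the presence and absence of CBD, and likewise of THC, was compared by an interaction contrast, in which no member was called (0% of named genes in either direction). At an unadjusted p under 0.05, 0 members were past it with CBD, and 1 was higher and 1 lower with THC. Of the 15161 named genes, 352 were higher and 372 lower at that p with CBD, and 208 and 216 with THC.

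CBD and THC share a formula, and the ring closed in THC as a pyran is open in CBD, which keeps that phenol free. They were compared at the same dose and time in 2 pairs, CBD versus THC and CBD+LPS versus THC+LPS. No member gene was called in either pair (0.673% of named genes were higher and 0.343% lower in the first pair, 0.778% and 0.35% in the second). Of genes detected on all arrays the shares were 1.12% and 0.757% in the first pair and 1.47% and 0.757% in the second. At an unadjusted p under 0.05, 4 member genes were higher and 3 lower in the first pair, and 4 higher and 1 lower in the second. Of the 15161 named genes, 902 were higher and 829 lower at that p in the first pair, and 1052 and 879 in the second. Psmd10 was 0.25 higher in CBD than in THC, with a 95% interval of −0.02 to 0.51, and 0.40 higher in CBD+LPS than in THC+LPS (0.14 to 0.67, adjusted p = 0.15). Psme3 was at −0.42 in CBD against THC (−0.66 to −0.18, adjusted p = 0.0845) and at −0.25 in CBD+LPS against THC+LPS (−0.48 to −0.01). For Psmb5 the intervals were 0.03 to 0.50 and −0.14 to 0.33. The interval of the difference held 0 for 32 of the 39 member genes detected on all arrays in the first pair and for 35 in the second, with a median width of 0.47. Of the 6340 named genes detected on all arrays, 602 were higher and 641 lower at an unadjusted p under 0.05 in the first pair. In the second pair 707 were higher and 638 lower. Without CBD replicate 2, Psme3 (−0.58, adjusted p = 0.0264) and Psmc3ip (−0.60, adjusted p = 0.0431) were called for CBD versus THC.

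Of 20 measured genes that act with the proteasome, such as ubiquitin receptors and regulators, 6 were higher and 1 lower in CBD+LPS, 4 higher in THC+LPS, 4 higher in LPS, 2 higher in CBD and 0 in THC, and 0 were lower outside CBD+LPS. Of all named genes, 6.88% were higher and 8.52% lower in CBD+LPS, and 5.82%, 6.24%, 2.22% and 0.0066% were higher in THC+LPS, LPS, CBD and THC. Nfe2l1 encodes NRF1, a transcription factor known to raise proteasome genes when proteasome activity is short. It had 12.99 and 13.54 in CBD+LPS, 12.24 to 12.68 in THC+LPS, 12.18 to 12.39 in LPS, 13.22 and 12.58 in CBD, 12.02 to 12.13 in THC and 11.71 to 11.9998 with a median of 11.91 in Cntr. No treated array overlapped Cntr. Nfe2l1 rose by 1.39 ± 0.14 in CBD+LPS (2.62-fold, adjusted p = 1.39e-07), 0.60 ± 0.11 in THC+LPS (adjusted p = 0.000318), 0.38 ± 0.10 in LPS (adjusted p = 0.00782) and 1.01 ± 0.14 in CBD (2.02-fold, adjusted p = 0.000132), and was at 0.20 ± 0.11 in THC (adjusted p = 0.999). It was also higher in CBD than in THC by 0.82 ± 0.15 (adjusted p = 0.00626) and in CBD+LPS than in THC+LPS by 0.79 ± 0.15 (adjusted p = 0.00778).

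Sqstm1, the receptor that hands ubiquitin-tagged cargo to autophagy, had 14.99 and 15.27 in CBD+LPS, 14.33 to 14.65 in THC+LPS, 13.35 to 14.45 in LPS, 14.98 and 13.93 in CBD and 12.30 to 13.03 in Cntr. None of these treated groups overlapped Cntr, while THC did. Sqstm1 rose by 2.35 ± 0.24 in CBD+LPS (5.09-fold, adjusted p = 2.29e-07), 1.72 ± 0.19 in THC+LPS (adjusted p = 4.04e-07), 1.23 ± 0.17 in LPS (adjusted p = 8.04e-06) and 1.67 ± 0.24 in CBD (3.19-fold, adjusted p = 0.000248). In THC it was at 0.22 ± 0.19 (adjusted p = 0.999). It was higher in CBD than in THC by 1.45 ± 0.26 (adjusted p = 0.00565), and was not called between CBD+LPS and THC+LPS. Nfe2l2, the gene of NRF2, rose by 0.56 ± 0.13 in CBD+LPS (adjusted p = 0.00296), 0.57 ± 0.10 in THC+LPS (adjusted p = 0.000198) and 0.84 ± 0.09 in LPS (adjusted p = 1.54e-07), and was at 0.04 ± 0.13 in CBD. Ublcp1, a phosphatase that acts on the nuclear proteasome, rose by 1.16 ± 0.13 in CBD+LPS (adjusted p = 7.33e-07), 0.65 ± 0.10 in THC+LPS (adjusted p = 5.41e-05) and 0.66 ± 0.09 in LPS (adjusted p = 7.27e-06), with no overlap. The gene lower in CBD+LPS was Ubqln1, a shuttle of ubiquitin-tagged proteins, at −0.25 ± 0.08 (adjusted p = 0.0398). Its probes disagreed, since another one detected on all arrays was at 0.29 in CBD+LPS (adjusted p = 0.187) and was called higher in LPS (0.29, adjusted p = 0.0426), where the brightest was at −0.04. Against LPS alone, CBD+LPS had Nfe2l1 higher by 1.01 ± 0.14 (adjusted p = 0.000111), Sqstm1 by 1.12 ± 0.24 (adjusted p = 0.00867), Ecpas, a proteasome scaffold, by 0.55 ± 0.14 (adjusted p = 0.0303) and Ublcp1 by 0.50 ± 0.13 (adjusted p = 0.0279). On the CBD arrays, where Nfe2l1 and Sqstm1 were higher, the 14 regulatory genes lay between −0.37 (Psmd6) and 0.29 (Psmd8) against Cntr. The 13 core genes lay between −0.11 (Psma4) and 0.26 (Psmb5), and none of these genes was called. Of all named genes detected on all arrays, 4.31% were called higher and 3.12% lower in CBD. CBD has only 2 arrays, and some differences were imprecise, as for Psmd6 (SE 0.28) and Psmd12 (−0.36 ± 0.24). The activity of NRF1 was not measured, and its part in the levels of these genes was not tested.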

How the data were processed

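RNA of 24 BV-2 samples was hybridised to Illumina MouseRef-8 arrays. The deposited table holds log2 values, which the authors made from the raw signal intensities by quantile normalization; recomputed values differed by at most 5e-09. The deposited intensities are not background corrected, which compresses differences of dim probes, and the deposited detection p-values were used at 0.05. Groups came from the labels. limma 3.58.1 in R 4.3.3 fitted 1 mean per group over all 24 arrays, with Benjamini-Hochberg adjustment across 24611 probes. The script was tested on simulated data. Genes were named through the platform annotation (19852 probes named, 4759 not). The brightest probe over all arrays stood for a gene. Full values were given, per comparison, for up to 6 called members with the largest difference in each direction, for Psmb5, Psmb6, Psmb7, Psmd4, Psmd14, Psme1 and Psme2 whatever they did, and for up to 4 called partner genes; Psmc1, Psmd9, Psmg2, Psmg3 and Psmc6 were chosen after their values were seen. The members and lists were chosen with earlier results of these data known. Alternatives were median scaling, neqc, removal of dim probes, mean-variance trend, array weights, the compared groups alone, a second probe, the study's unadjusted threshold of 0.005, the replicate number as a block and leaving out each array; the column set as a block and crossed numbers were added after seeing the data. Promoters were matched by symbol to RefSeq (GRCm38.p6).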

Additional observations from a re-analysis of the deposited data

Results flagged for a closer look

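In 4 of 52 groups tested, over 13 genes, 1 array lay far from the others of its group, where chance gives about 1 in 20 groups. Psmb6 had 14.84 on LPS replicate 4, against 14.73 on the nearest LPS array. Psmb6 had 14.81 on THC replicate 2, against 14.67 on the nearest THC array. Psmd14, the lid deubiquitinase, had 11.81 on Cntr replicate 6, against 11.24 on the nearest Cntr array. Psme2 had 9.81 on the same Cntr array, against 10.51 on the nearest.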

How the results depend on the processing

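Of 16 gene calls over 304 refits, 257 were kept, 47 lost and 0 turned their sign, while medians close to 0 changed sign with median scaling or without single arrays. Counts of member genes moved as follows. With median scaling, 3 were lower in LPS, 0 higher and 0 lower in CBD, 3 higher and 0 lower in CBD+LPS, and 1 higher and 4 lower in THC+LPS. Core medians were then −0.073 in CBD+LPS, −0.12 in THC+LPS, −0.0046 for CBD+LPS versus LPS and −0.0591 for THC+LPS versus LPS, and regulatory medians −0.0772 in LPS, 0.0031 in CBD+LPS, −0.14 in THC+LPS, 0.0894 for CBD+LPS versus LPS and −0.0873 for THC+LPS versus LPS. Over all probes, median scaling gave 1005 higher and 3198 lower in LPS, against 1386 and 1953. It gave 926 and 2678 in THC+LPS, 1077 and 1774 in CBD+LPS, and 247 and 147 in CBD. With neqc, 2 were higher in CBD and 2 for CBD+LPS versus LPS. Without dim probes, 2 were higher and 2 lower in CBD, 3 lower in CBD+LPS, 2 higher for CBD+LPS versus LPS and 2 lower for CBD versus THC. With the replicate number as a block, 0 were higher in CBD and 0 lower in CBD+LPS; Psmd10 in CBD (adjusted p = 0.0632), Psme3 in CBD+LPS (adjusted p = 0.212) and Psme1 in THC+LPS (adjusted p = 0.104) were lost. The deviations of same-numbered arrays correlated at −0.745 to 0.759 (median −0.00528), with 16 of 44 pairs over 0.1, so the numbers were not taken to pair the samples. With crossed numbers for CBD and CBD+LPS, 0 were lower in CBD+LPS and 1 higher for CBD+LPS versus LPS. With the set of 8 columns as a block, 2 were higher in CBD, 0 lower in CBD+LPS, 2 higher in THC+LPS and 1 higher for CBD+LPS versus LPS, and Psme3 in CBD+LPS (adjusted p = 0.0857), Psma5 in THC+LPS (adjusted p = 0.0601) and Psme1 in THC+LPS (adjusted p = 0.0509) were lost. With a variance trend, 2 were higher in CBD and 0 lower in CBD+LPS, and with array weights or the compared groups alone 0 were lower in CBD+LPS. At an unadjusted p under 0.005, 2 were higher and 2 lower in CBD, 1 higher in THC, 0 lower in CBD+LPS, 2 higher for CBD+LPS versus LPS, 3 lower for CBD versus THC and 1 higher for CBD+LPS versus THC+LPS. With the second probe, 0 were higher in CBD, 3 higher and 2 lower in CBD+LPS and 1 lower for CBD+LPS versus LPS. Leaving out 1 array gave 3 to 5 higher and 0 to 1 lower in LPS, 0 to 1 each way in CBD, 5 to 6 higher and 0 to 2 lower in CBD+LPS, 3 to 4 higher and 0 to 1 lower in THC+LPS, 0 to 1 each way for CBD+LPS versus LPS and 0 to 2 lower for CBD versus THC. The core median then ran 0.0300 to 0.109 in CBD+LPS, 0.0406 to 0.175 for CBD+LPS versus LPS, −0.0600 to 0.0286 for CBD versus THC and 0.00989 to 0.0897 for CBD+LPS versus THC+LPS, and the regulatory median 0.0489 to 0.173 in CBD+LPS, 0.0330 to 0.200 for CBD+LPS versus LPS and 0.0659 to 0.180 for CBD+LPS versus THC+LPS.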
